A study of Mus musculus with 6 samples.

Results

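Complement is a set of secreted proteins, membrane inhibitors and receptors, and the 9 genes described here encode its recognition molecule C1q (C1qa, C1qb and C1qc), the central components C3 and C4 (C3 and C4b), the alternative pathway protease factor B (Cfb), the C1 inhibitor (Serping1) and the receptors for the C3a and C5a fragments (C3ar1 and C5ar1). They were chosen by gene symbol, and all 9 were rows of a table of 25755 genes. RNA of whole optic nerves was sequenced in bulk from 6 Nf1flox/flox; hGFAP-Cre mice aged 3 months. Mice 1 to 3 had sham surgery and mice 4 to 6 had optic nerve crush (ON-CR, a brief clamp of the nerve behind the eye), at 6 weeks of age per the study's methods. The study sequenced them to look for how crush leads tumor-associated monocytes to make the chemokine Ccl5. It reported that optic gliomas form by this age after ON-CR in mice of this genotype, with greater nerve volume and proliferation than after sham surgery. The labels do not say whether the sequenced nerves held tumors, so injury and tumor cannot be told apart in the values below. All 6 mice carried the same alleles, in which Cre driven by the human GFAP promoter removes Nf1 from neuroglial progenitors and the cells that descend from them. No group without this loss of Nf1 was analysed here, so every value below is from mice that have it. The study describes them as Nf1+/+ mice apart from this loss.

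In the classical pathway, C1q binds to immune complexes, dying cells or exposed membranes, and the proteases C1r and C1s bound to it cleave C4 and C2 to form an enzyme that cleaves C3. Factor B builds a second enzyme of this kind on C3b already deposited, which amplifies the cascade, while the C1 inhibitor stops C1r and C1s. In the central nervous system, microglia are the main source of C1q and carry the C3a and C5a receptors, astrocytes are known to make C3, C4 and the C1 inhibitor, and deposited C1q and C3 fragments mark synapses and debris for uptake by phagocytes.

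The values are normalized signals of each gene (estimated counts over 1 scaling factor for the library), from libraries of 17414035 to 23620997 estimated reads. Each ON-CR library was shallower than each sham library. Every member was above the floor of 3 reads in every mouse, the lowest being Cfb in sham mouse 1 with 27 reads. Markers of the labelled tissue were abundant: the 10 oligodendrocyte genes summed to 1293645 to 1848598 in sham mice and to 631361 to 748270 in ON-CR mice, and Gfap was at 99186 or higher in all 6. Some libraries stood apart in transcripts of other cells or of sex. The summed B and plasma cell genes were 98517 in ON-CR mouse 6 and 371 to 2402 in the other 5 mice. The epithelial secretory gene Bpifa1 was at 7568, 4579 and 5894 in sham mouse 3 and ON-CR mice 5 and 6, and at 22.3 or less in the other 3. Xist was at 2.14 to 30.9 in sham mice and 2708 to 6357 in ON-CR mice, and the Y-linked Ddx3y was at 4.19 and 0 in ON-CR mice 5 and 6, while ON-CR mouse 4 held both, with Ddx3y at 976. Sex and surgery therefore cannot be told apart for any gene.

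C1qa, C1qb and C1qc lie next to each other on the minus strand of chromosome 4 of GRCm38 (from 136880129 at the end of C1qb to 136898803 at the start of C1qa), C3, C4b and Cfb on chromosome 17, C3ar1 on chromosome 6, C5ar1 on chromosome 7 and Serping1 on chromosome 2. Sequence upstream of the start was matched in the RefSeq promoter table (GRCm38.p6) for 5 of the 9 members. The stretches below belong to 4 members that rose after ON-CR, 2 of the adjacent C1q genes and the pair C3 and C3ar1, which code for a precursor and the receptor of its fragment. Each is written 5′ to 3′ on the minus strand and ends just before the most upstream start annotated for the gene in RefSeq or GENCODE, which left 99 bases for C1qc. Capitals mark matches, on either strand, to 4 motifs searched in the 250 bases before the RefSeq start.
C1qb, chr4:136886201-136886450: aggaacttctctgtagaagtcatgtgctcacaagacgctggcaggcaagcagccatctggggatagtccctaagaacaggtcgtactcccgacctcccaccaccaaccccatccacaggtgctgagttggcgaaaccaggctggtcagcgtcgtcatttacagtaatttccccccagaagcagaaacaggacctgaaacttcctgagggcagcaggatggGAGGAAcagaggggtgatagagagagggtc
C1qc, chr4:136893066-136893164: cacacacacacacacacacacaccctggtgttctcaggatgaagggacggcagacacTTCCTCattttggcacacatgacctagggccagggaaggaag
C3, chr17:57228137-57228386: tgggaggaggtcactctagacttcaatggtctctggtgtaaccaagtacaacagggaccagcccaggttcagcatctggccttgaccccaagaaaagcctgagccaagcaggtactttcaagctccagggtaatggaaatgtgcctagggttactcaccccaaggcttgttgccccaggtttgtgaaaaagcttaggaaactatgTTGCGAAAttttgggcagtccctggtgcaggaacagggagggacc
C3ar1, chr6:122856162-122856407: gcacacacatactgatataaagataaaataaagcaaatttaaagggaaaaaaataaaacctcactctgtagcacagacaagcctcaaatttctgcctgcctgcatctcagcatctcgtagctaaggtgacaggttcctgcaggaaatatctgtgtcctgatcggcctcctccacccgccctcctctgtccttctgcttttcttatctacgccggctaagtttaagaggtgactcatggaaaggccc
The core GAGGAA, bound by the myeloid factor PU.1, was found once upstream of C1qb, 30 to 25 bases before the start, and once upstream of C1qc on the opposite strand, 193 to 188 bases before the RefSeq start. It is a frequent string, present in 23.3% of 32851 promoter windows of this length. The C/EBP pattern TTGCNNAA matched C3 once, 45 to 38 bases before the start, and 9.56% of all windows. The STAT pattern TTCNNNGAA and the interferon response core, GAAA repeated after any 2 bases, were present in 7.02% and 2.98% of all windows and matched none of the 4. No matches overlapped, and a match is a string of letters, not a bound site.

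After ON-CR, 6 of the 9 members rose, 0 fell and 3 did not pass the test (limma on log2(value + 1), Benjamini-Hochberg adjusted over all 25755 genes, called at 0.05 or less). Among all genes, 0.971% were called higher and 1.13% lower, and among the 14436 genes with a mean value of at least 50 the share called higher was 1.49%. At an unadjusted p under 0.05 the same number of members, 6, were higher and 0 lower, and voom with sample quality weights also called 6 higher and 0 lower. With 1 mouse left out the count was 2 without ON-CR mouse 6 or sham mouse 1 or 2, 3 without sham mouse 3, 4 when ON-CR mouse 4 was dropped and 6 when mouse 5 was. The 6 were the 3 C1q chains, C4b, C3 and C3ar1, by factors of 1.89 to 3.84 in the group means. The median log2 change was 1.01 over the 9 members and 0.03 over all genes tested. For 7 of the 9 each ON-CR mouse was above each sham mouse, as for 10.5% of all genes. In bulk tissue, more cells of a type and more RNA per cell cannot be told apart.

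**Figure D1:**
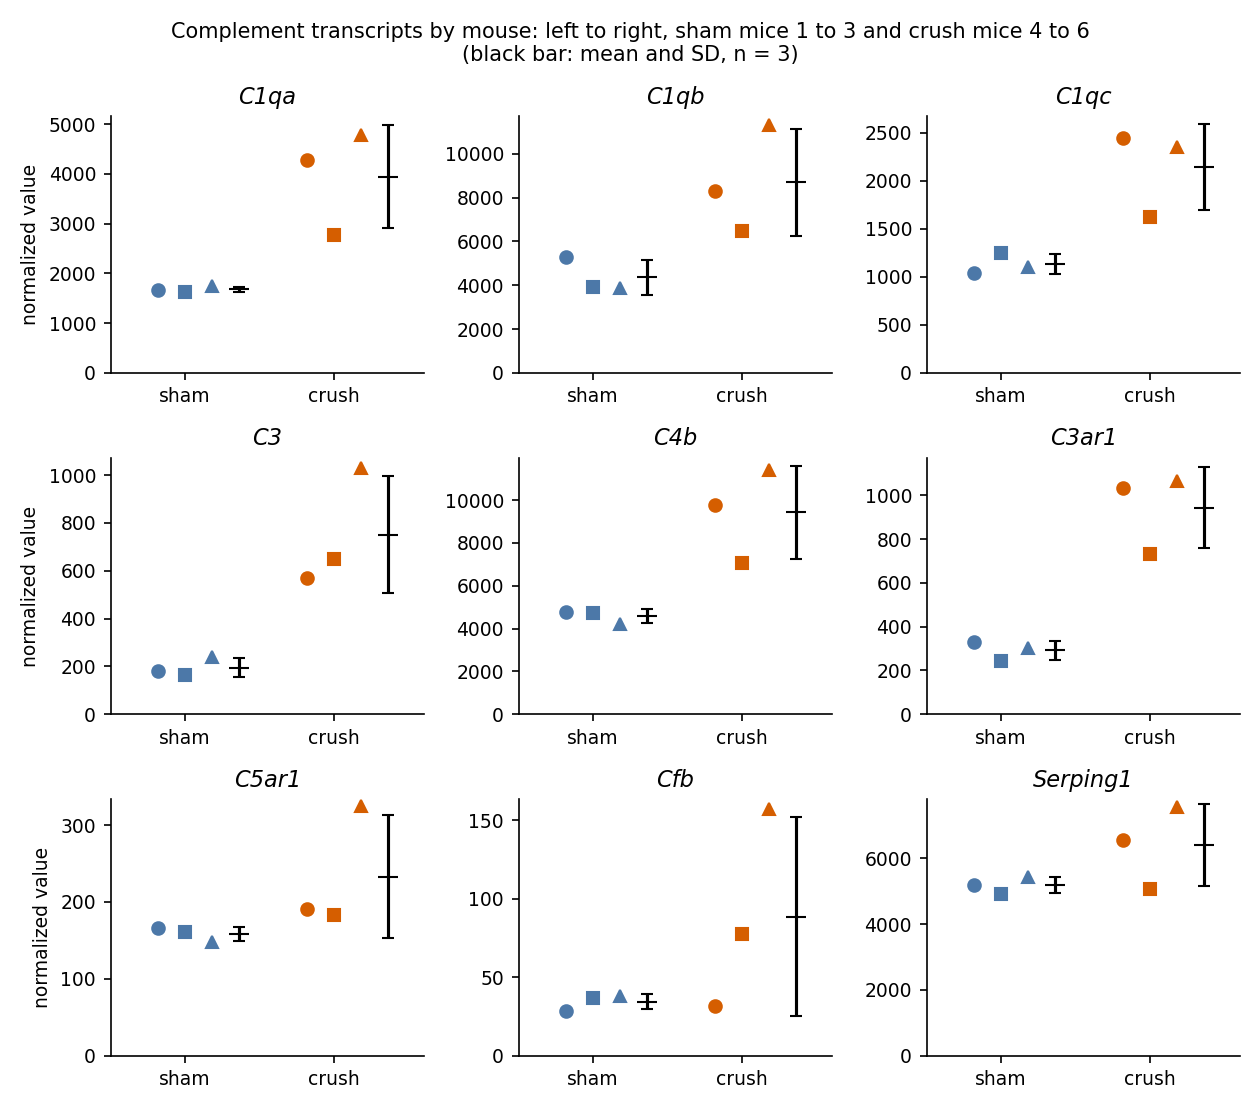
Normalized value (linear axes from 0) of each of the 9 complement members in sham mice 1 to 3 (blue) and ON-CR mice 4 to 6 (orange, labelled crush), with the mean and SD of each group (n = 3) in black. The groups do not touch for C1qa, C1qb, C1qc, C3, C4b, C3ar1 and C5ar1, and they overlap for Cfb and Serping1.

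C1q, the recognition molecule, is assembled from chains that C1qa, C1qb and C1qc encode in equal numbers. C1qa was at 1670.3, 1623 and 1736 in sham mice 1, 2 and 3 and at 4271, 2779 and 4788 in ON-CR mice 4, 5 and 6. The sham mice lay close together and all ON-CR mice were higher, mouse 5 the least. The mean went from 1677 ± 57.1 to 3946 ± 1043 (SD over 3 mice per group), a log2 change (ON-CR minus sham, with its standard error, SE) of 1.20 (SE 0.18), with limma adjusted p = 0.00924. C1qb was at 5286, 3900.0 and 3883 in sham mice and at 8318, 6457 and 11327 in ON-CR mice. Sham mouse 1 stood above the other 2, and all ON-CR mice lay above it. Its log2 change was 0.98 (SE 0.20), with limma adjusted p = 0.0372. C1qc was at 1044, 1249 and 1103.5 in sham mice and at 2449.8, 1627 and 2356 in ON-CR mice, without overlap. Its log2 change was 0.90 (SE 0.16), with limma adjusted p = 0.0225.
The chains were not equal in level. Per kilobase of the longest annotated transcript, C1qb was at 4004 ± 739.7, C1qa at 1612 ± 54.9 and C1qc at 941 ± 87.7 in sham mice (SD over 3 mice per group), and the ranges of the chains did not overlap with each other. Their ratios were compared with a two-sided exact permutation test, in which 3 mice against 3 cannot give a p below 0.1, and 6 ratios of members were computed after their values had been seen. The ratio of C1qb to C1qa was 2.60 ± 0.495 in sham and 2.21 ± 0.230 in ON-CR mice (SD over 3 mice per group, exact p = 0.4, adjusted p = 0.48). The ratio of C1qc to C1qa was 0.677 ± 0.0807 in sham and 0.550 ± 0.0508 in ON-CR mice (SD over 3 mice per group). All 3 ON-CR mice were below all 3 sham mice in this ratio (exact p = 0.1, adjusted p = 0.15), so a smaller gain of C1qc than of C1qa could not pass in this design.

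C4 is cleaved by the C1 complex and its larger fragment binds covalently to surfaces. C4b was at 4778, 4749 and 4230.1 in sham mice 1, 2 and 3 and at 9763, 7083 and 11422.5 in ON-CR mice 4, 5 and 6. The lowest ON-CR mouse, again mouse 5, lay well above all sham mice. The log2 change was 1.01 (SE 0.16), with limma adjusted p = 0.0134, close in size to that of the C1q chains. C4b shares 48.3% of its 31-base words with the neighbouring gene C4a, so reads of this pair may be divided between them. C4a itself was at 11.5 to 34.8 in the 6 mice, and the sum of both had a log2 change of 1.01 (limma adjusted p = 0.0136).

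C3, on which the pathways converge, had the largest fold change of the 9. It was at 180.4, 164 and 241 in sham mice 1, 2 and 3 and at 570.3, 651 and 1029 in ON-CR mice 4, 5 and 6. The lowest ON-CR mouse was at more than the highest sham mouse by a wide margin, and the order within the ON-CR group differed from that of C1q and C4b, since mouse 4 and not mouse 5 was lowest. The mean went from 195 ± 40.8 to 750.1 ± 245 (SD over 3 mice per group), a log2 change of 1.91 (SE 0.23), with limma adjusted p = 0.00365. The epithelial Bpifa1 had the same order within groups, highest in sham mouse 3 and in ON-CR mice 5 and 6, which also held the highest C3 of their groups. In ON-CR mouse 4 Bpifa1 was at 0 and C3 at 570.3, above every sham mouse. Without ON-CR mouse 5 or 6 the log2 change of C3 was 1.99 or 1.66 (limma adjusted p = 0.00248 and 0.04). Each of these fits kept the other ON-CR mouse with Bpifa1, and the part of epithelial RNA in the values of C3 was not tested. The ratio of C3 to C4b was 0.0431 ± 0.0122 in sham and 0.0801 ± 0.0188 in ON-CR mice (SD over 3 mice per group), without overlap (exact permutation p = 0.1, adjusted p = 0.15).

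Factor B is the protease that binds to C3b to form the amplifying enzyme. Cfb was the least abundant member, at 28.7, 36.9 and 37.9 in sham mice 1, 2 and 3 and at 31.7, 77.3 and 157 in ON-CR mice 4, 5 and 6. ON-CR mouse 4 lay within the sham range and mice 5 and 6 above it. Its log2 change was 1.07 (SE 0.49, 95% interval from -0.03 to 2.16), with limma adjusted p = 0.332. It was 1.66 without ON-CR mouse 4 (limma adjusted p = 0.0634) and 0.52 without ON-CR mouse 6 (adjusted p = 0.679). ON-CR mice 5 and 6 were also those with Bpifa1, and the part of epithelial RNA in these values was not tested, while sham mouse 3, with the highest Bpifa1 of all, had Cfb at 37.9, the top of the sham range. A readthrough gene, Gm20547, holds 2246 of the 2825 exonic bases of Cfb on the same strand. It was listed at 15.1, 0.419 and 11.6 in sham mice and at 28.2, 0.473 and 48.96 in ON-CR mice, so it was near 0 in 1 mouse of each group and not in the others. With both genes summed, a step added after the values were seen, the sham mice were at 43.8, 37.3 and 49.5 and the ON-CR mice at 59.9, 77.7 and 206, without overlap. The log2 change of the sum was 1.17 (SE 0.42), with limma adjusted p = 0.202, so the change of factor B did not pass either way.

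Serping1, the inhibitor of C1r and C1s, was the most abundant member per kilobase after C1qb in sham mice and had the smallest fold change of the 9. It was at 5199.7, 4925 and 5430.1 in sham mice 1, 2 and 3 and at 6563, 5067 and 7569.7 in ON-CR mice 4, 5 and 6. ON-CR mouse 5 lay within the sham range. The log2 change was 0.29 (SE 0.15, 95% interval from -0.04 to 0.61), with limma adjusted p = 0.379, an interval whose upper end is a factor of 1.52.

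Of the receptors, C3ar1, which binds C3a, rose with every mouse of the ON-CR group above every sham mouse. It was at 330.0, 245 and 304 in sham mice 1, 2 and 3 and at 1032, 733 and 1066 in ON-CR mice 4, 5 and 6. The mean went from 293 ± 43.5 to 944 ± 183 (SD over 3 mice per group), a log2 change of 1.67 (SE 0.18), with limma adjusted p = 0.00237, which was the lowest adjusted p among the members. C5ar1, which binds C5a, was at 166, 161 and 148 in sham mice and at 190.4, 183 and 325 in ON-CR mice. The groups did not overlap, but 2 of the ON-CR mice were only just above the sham mice and mouse 6 stood apart. Its log2 change was 0.50 (SE 0.23, 95% interval from -0.01 to 1.02), with limma adjusted p = 0.329. Without ON-CR mouse 6 it was 0.24 (limma adjusted p = 0.639). The ratio of C3ar1 to C5ar1 was 1.86 ± 0.290 in sham and 4.23 ± 1.09 in ON-CR mice (SD over 3 mice per group). It was higher in 3 of 3 ON-CR mice than in any sham mouse (exact permutation p = 0.1, adjusted p = 0.15, the smallest raw p possible).

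By level per kilobase, the members in sham mice ran C1qb, Serping1, C1qa, C1qc, C4b, C3ar1, C5ar1, C3 and Cfb, from 4004 down to 12.5. The neighbours C1qc and C4b, and C3ar1 and C5ar1, overlapped in their ranges over the sham mice, and the other neighbours did not. In ON-CR mice C1qa stood at 3794 ± 1003 and Serping1 at 3619.8 ± 712 (SD over 3 mice per group) with overlapping ranges, and C3 at 146 ± 47.7 stood above C5ar1 at 91.7 ± 31.4 with overlapping ranges.

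**Figure D2:**
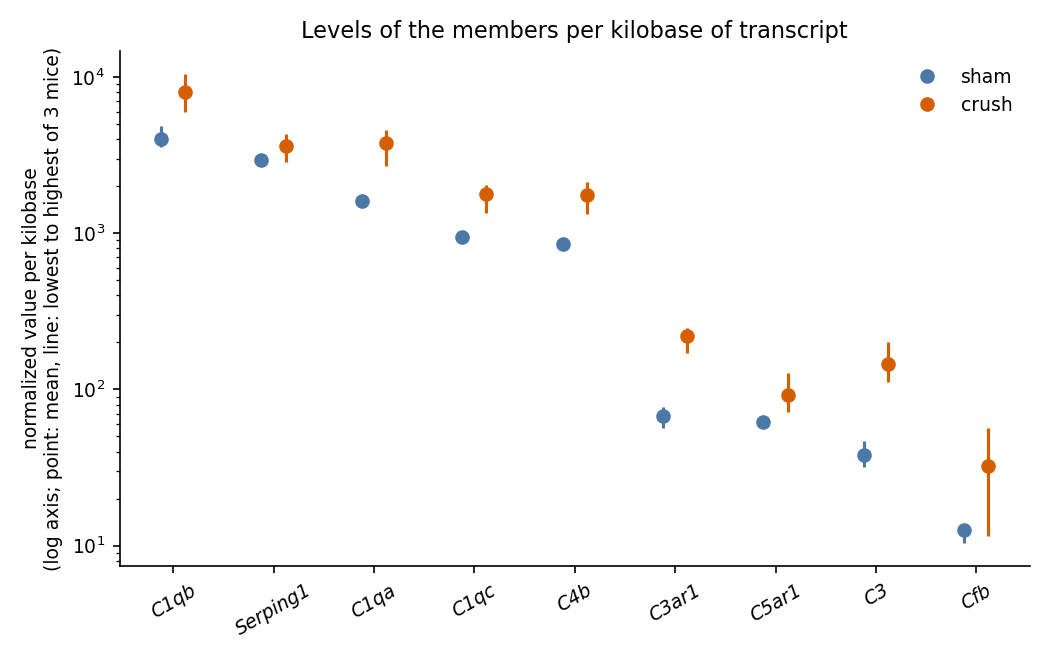
Normalized value per kilobase of the longest annotated transcript for each member, on a log axis, with the mean (point) and the lowest to highest of 3 mice (line) in sham (blue) and ON-CR (orange, labelled crush) nerves. The levels span from 12.5 for Cfb in sham mice to 7997 for C1qb in ON-CR mice, and C3 and C3ar1 show the widest separation of the groups.

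ON-CR mice varied more than sham mice in every member. The coefficient of variation was 3.40% to 20.9% in the sham group and 19.4% to 71.5% in the ON-CR group. ON-CR mouse 6 was highest for 8 of the 9 members and mouse 5 lowest for 7. These libraries also stood apart in other cell lists: the 7 neuron genes summed to 12559 in ON-CR mouse 5 and 3037 to 6940.0 in the other 5 mice, and the monocyte list was 1.37 above its sham mean (log2) in ON-CR mouse 6 and at most 0.38 above it in the others. The part of these cells in the order of the mice was not tested. C1qc was the exception at the top, with mouse 4 highest, and C3 and Cfb the exceptions at the bottom. Relative to the sham mean, C1qa was at 2.55, 1.66 and 2.86 times in ON-CR mice 4, 5 and 6, and C3 at 2.92, 3.34 and 5.27 times. The calls of C3 and C3ar1 were kept whichever mouse was left out (adjusted p up to 0.04 and 0.0431 by limma). C1qa lost its call without ON-CR mouse 6 or sham mouse 1 or 2 (0.0854, 0.0544 and 0.0695 by limma). C4b lost its call without ON-CR mouse 6 or any one sham mouse (0.0621 to 0.098 by limma). C1qb and C1qc lost theirs without any one mouse but ON-CR mouse 5 (0.0626 to 0.201 and 0.0592 to 0.168 by limma).

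The members were set beside lists of marker genes. Of 12 genes of homeostatic microglia, 0 were called in either direction by limma (3 were higher at an unadjusted p under 0.05, and voom called 1 higher), with a median log2 change of 0.30. Their summed level was 17620 to 24509 in sham mice and 20394 to 29463 in ON-CR mice, and none was at 0. A positive log2 change was found for 8 of the 12. Tmem119 and P2ry12, which define these cells, went the other way, at -0.27 and -0.35 on the log2 scale (limma adjusted p = 0.351 and 0.364). For Tmem119 each ON-CR mouse lay below each sham mouse, as for 11.0% of all genes. For 1 other gene of the 12 each ON-CR mouse lay above each sham mouse, as for 10.5% of all genes. By microscopy, the study reported more Tmem119+ cells and a larger share of Iba1+ cells in ON-CR nerves of this genotype and age. The Tmem119+ cells were detected by RNA in situ hybridization. These results count positive cells, whereas the values here are RNA levels of the whole nerve. Of 10 genes of myeloid cells in general, 7 rose, with a median of 1.12, among them the phagocyte lysosomal gene Cd68 (log2 change 1.80) and the receptor adaptor Fcer1g (1.34). Aif1, the gene that encodes Iba1, was also among the 7. Their summed level was 13443 to 17188 in sham mice and 19874 to 37279 in ON-CR mice. Of 12 genes of activated microglia, 8 rose, among them Cst7, Clec7a and Trem2. The summed level of the 12 overlapped between the groups, at 209336 to 261653 in sham and 193492 to 232835 in ON-CR mice. The most abundant genes weigh most in that sum. The mean log2 level of the 12 did not overlap. Relative to its sham mean it was at -0.17 to 0.13 in sham mice and 1.51 to 2.01 in ON-CR mice. Of 9 border macrophage and 6 monocyte genes, 0 were called by limma or voom (1 higher and 1 lower, and 0, at an unadjusted p under 0.05). The summed border macrophage genes were 2276 to 2789 in sham and 2079 to 2682 in ON-CR mice.
Of 9 astrocyte genes 0 were called by limma (3 higher and 1 lower at an unadjusted p under 0.05, and 1 each way by voom), whereas 8 of 15 genes of reactive astrocytes rose, with a median of 1.26. Their summed level was 30991 to 42811 in sham and 59168 to 96905 in ON-CR mice, with ON-CR mouse 5 lowest and mouse 6 highest of their group. The summed myeloid genes in general (29739, 19874 and 37279 in ON-CR mice 4, 5 and 6) and the summed interferon-stimulated genes (16178, 13038 and 20857) had this order too. Of 10 mature oligodendrocyte genes 7 fell. The part of these cells in the change of the members was not tested.

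**Figure D3:**
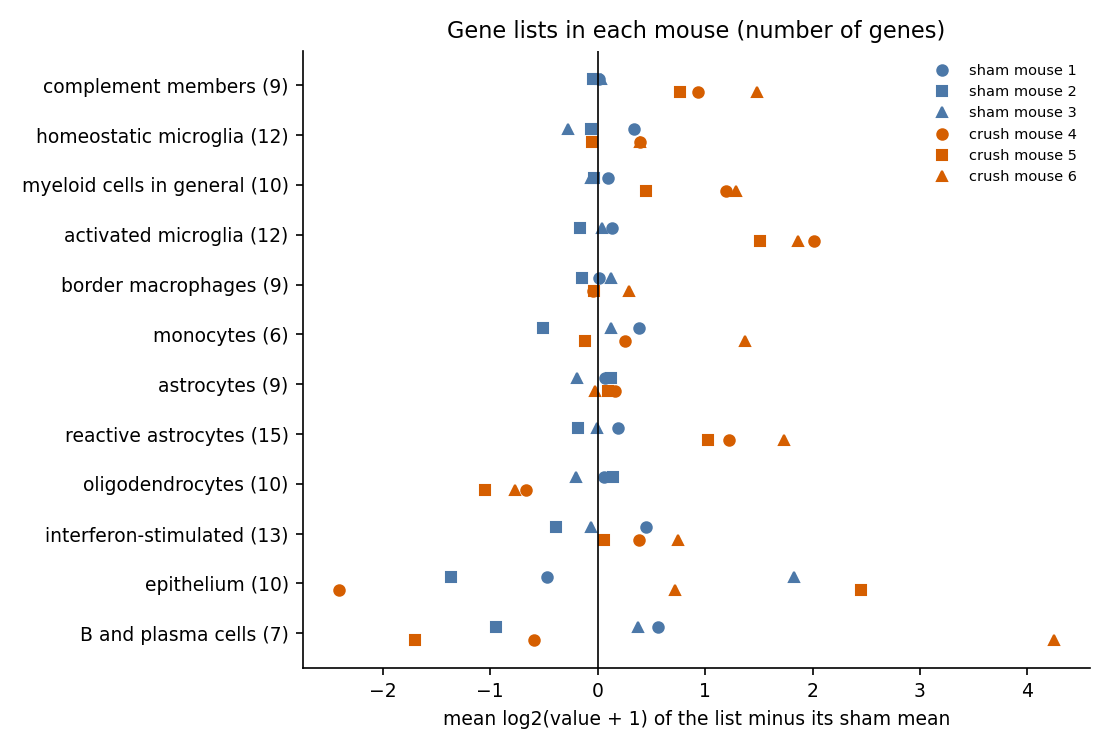
Mean log2(value + 1) of each gene list minus its sham mean (horizontal axis) in each sham (blue) and ON-CR (orange, labelled crush) mouse, with the number of genes of the list in brackets. The complement members, at 0.93, 0.76 and 1.48 in ON-CR mice 4, 5 and 6, lie between the homeostatic microglia list (0.40, -0.05 and 0.39) and the list of activated microglia (2.01, 1.51 and 1.86).

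To describe the members per microglial transcript, the mean log2 value of the 12 homeostatic genes was subtracted in each mouse before the fit. On this scale 3 of 9 members were higher after ON-CR and 0 lower by limma, where 0.493% of all genes were called higher and 1.34% lower, and the median difference was 0.77 over the members and -0.22 over all genes. They were C3, with a log2 difference of 1.66 (SE 0.32, adjusted p = 0.000895), C3ar1 with 1.43 (0.29, adjusted p = 0.00168) and C1qa with 0.95 (0.25, adjusted p = 0.0285). C1qa lost this call without ON-CR mouse 4 or 6 or sham mouse 1 or 2 (0.1305, 0.326, 0.0641 and 0.216 by limma), while C3 and C3ar1 kept theirs whichever mouse was left out. C1qb, C1qc and C4b had differences of 0.73, 0.65 and 0.77 (limma adjusted p = 0.113, 0.249 and 0.0858), and the groups did not overlap for any of them. Serping1 was at 0.04, with a 95% interval from -0.45 to 0.52. For all 6 that rose per library, the ON-CR mice stayed above the sham mice on this scale, as for 3.23% of all genes. The result depended on the list. Relative to myeloid genes in general, C3 was still higher (0.93, limma adjusted p = 0.0266), the C1q chains were at 0.22, -0.00393 and -0.0777 (C1qa, C1qb and C1qc), and Serping1 was lower (-0.69, adjusted p = 0.04). Relative to the genes of activated microglia, 0 members were higher and 6 were lower by limma, C1qa, C1qb, C1qc, C4b, C5ar1 and Serping1, while C3 was at 0.12 and C3ar1 at -0.12.

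**Figure D4:**
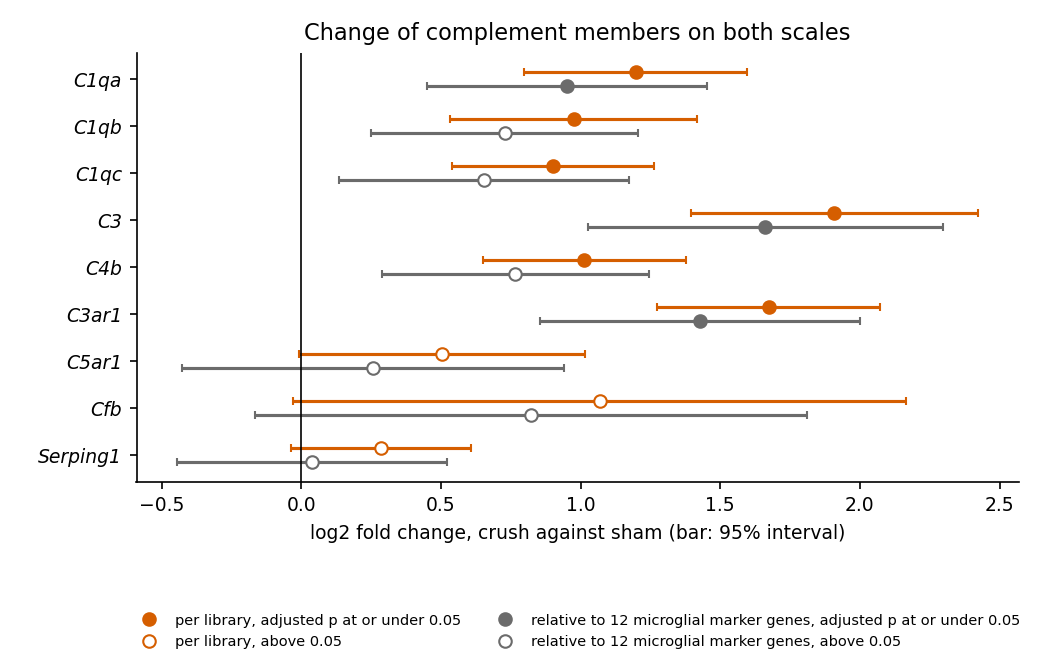
Log2 fold change of each member, ON-CR against sham, with its 95% interval, per library (orange) and relative to the mean of 12 homeostatic microglial genes (grey), with filled points for an adjusted p at or under 0.05. C3 and C3ar1 are farthest from 0 on both scales, and C5ar1, Cfb and Serping1 have intervals that include 0 on both.

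Of 52 other complement genes listed by role, 41 were analysed here, and 2 rose and 1 fell, with a median log2 change of 0.10. Of 11 other genes that start the pathways, 0 were called by limma or voom and 0 had an unadjusted p under 0.05. The C1r and C1s proteases did not pass, with C1ra at 127 to 263 in sham and 147 to 354 in ON-CR mice (log2 change 0.26, limma adjusted p = 0.769) and C1s1 at 51.4 to 111 and 65.0 to 153 (0.15, adjusted p = 0.889). C2, the partner of C4 in the C3-cleaving enzyme, was at 654 to 711 in sham and 519 to 677 in ON-CR mice (-0.18, limma adjusted p = 0.57). Properdin, the stabilizer of the alternative pathway encoded by Cfp, was at 386 in ON-CR mouse 6 and 81.8 to 205 in the other 5 mice.
Of 4 terminal pathway genes 0 were called by limma or voom, and 0 had an unadjusted p under 0.05. Hc, which encodes C5, the precursor of the ligand of C5ar1, was at 7.98 to 17.7 in the 6 mice, close to the limit of what this depth can compare. C6 was at 7.08 to 10.6 in sham and 0 to 5.19 in ON-CR mice (limma adjusted p = 0.324).
Of 17 regulators, 0 rose and 1 fell by limma (2 were higher and 2 lower at an unadjusted p under 0.05, and voom called 0 and 1). The one that fell was Sez6l2, a membrane protein with complement control domains that is known from neurons. It was at 5181, 6167 and 4929 in sham mice 1, 2 and 3 and at 3405, 3262 and 3548 in ON-CR mice 4, 5 and 6 (log2 change -0.67, SE 0.12, limma adjusted p = 0.0193). Its groups did not overlap, and it lost its call without ON-CR mouse 6 or sham mouse 1 or 2. Of 7 neuron genes 0 were called by limma or voom and 0 had an unadjusted p under 0.05, with all 7 at a positive log2 change and a median of 0.79. Their summed level was 4156 to 6940 in sham mice and 3037, 12559 and 6219 in ON-CR mice 4, 5 and 6. Only ON-CR mouse 5 was thus above the sham range, and mouse 4 was below it. The cells that the RNA of Sez6l2 came from were not tested. The membrane inhibitor Cd55 was at 354 to 371 in sham and 251 to 303 in ON-CR mice, without overlap, but did not pass (-0.41, limma adjusted p = 0.189). Cr1l, the rodent inhibitor Crry, was at 1103 to 1215 and 977 to 1261 (-0.02, limma adjusted p = 0.972).
Of 9 other receptors and C1q binding proteins, 2 rose, and both are integrin chains that form receptors for the C3 fragment iC3b. Itgax, the alpha chain of complement receptor 4, was at 29.7, 26.6 and 31.7 in sham mice and at 301, 163 and 401 in ON-CR mice (log2 change 3.16, SE 0.32, limma adjusted p = 0.00168). Itgb2, the beta chain it shares with complement receptor 3, was at 577, 408 and 434 in sham mice and at 1139, 761 and 1429 in ON-CR mice (1.20, SE 0.22, limma adjusted p = 0.0256). Itgam, the alpha chain of complement receptor 3, was at 388 to 442 in sham and 503 to 696 in ON-CR mice, without overlap, but did not pass (0.58, limma adjusted p = 0.0985). Another gene, Gm49368, holds 3450 of the 5024 exonic bases of Itgam on the same strand, so reads may be divided between them. C5ar2, the second C5a receptor, was at 33.1 to 62.6 and 44.5 to 70.2 (0.33, limma adjusted p = 0.683). Itgax kept its adjusted p at or under 0.05 whichever mouse was left out, and Itgb2 lost it without any one mouse but ON-CR mouse 5.

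**Figure D5:**
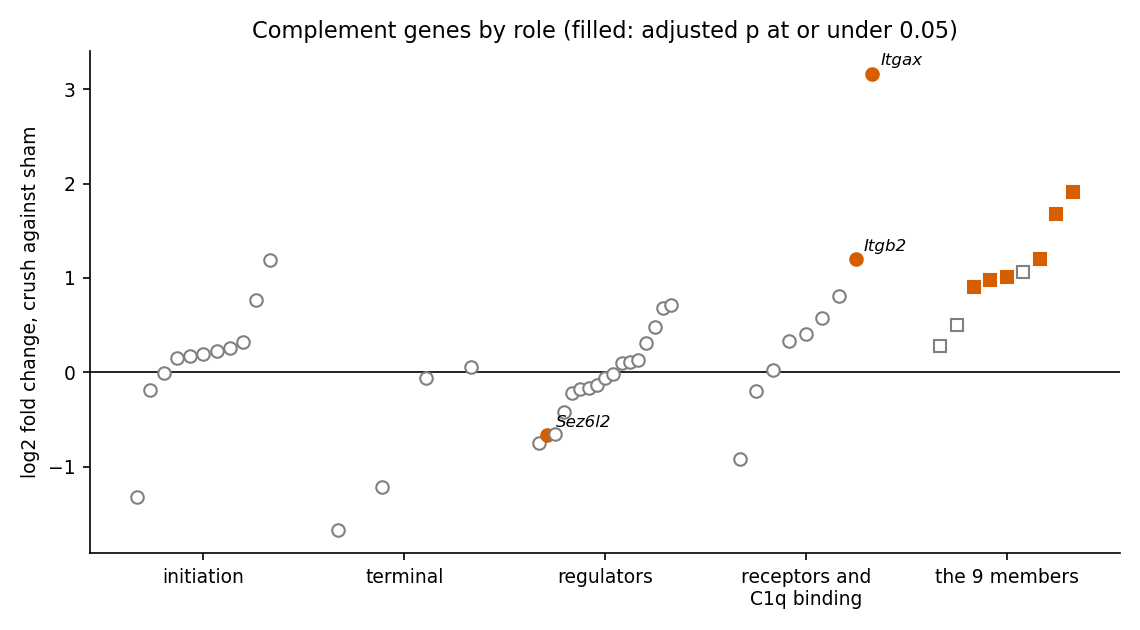
Log2 fold change, ON-CR against sham, of 41 other complement genes by role (circles) and of the 9 members (squares), with filled symbols for an adjusted p at or under 0.05 by limma. Among the circles, Itgax at 3.16, Itgb2 at 1.20 and Sez6l2 at -0.67 are filled, and 6 of the 9 squares are.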

How the data were processed

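Per the study's methods, the authors aligned and quantified reads with Illumina DRAGEN on the Ensembl mouse genome, assigned them to mm10 Ensembl models and median-normalized them in Partek (version 10.0 per the labels). The deposited values are this normalized signal per gene. Between 66.2% and 68.4% of values above 0 came back as whole reads (within 0.02 of a read) when divided by the value of 1 read, too few for a count model, so the DESeq2 test of the study was not run and the recovered reads served for depth, TMM scaling and the simulated data. Values were tested as log2(value + 1), which understates changes of low genes, by limma 3.58.1 (R 4.3.3) with a trend of variance on level, and p-values were adjusted by Benjamini-Hochberg over 25755 genes. On simulated data of 25755 genes, 198 of 200 genes changed 4-fold were recovered with 6 false calls. That simulation used a single fixed spread for all genes and changes larger than that of any member. It therefore does not measure how often changes of the members' size are recovered. Gene positions and transcript lengths were from GENCODE M21 (GRCm38), promoters from RefSeq. Levels per kilobase assume even coverage of transcripts. The members, lists, tests and alternatives were chosen with earlier results of these data known. Genes named were the members, list genes that passed or that define a role or cell type, and the 3 genes most alike to the C1q mean, C3, C4b and Serping1 among those with a mean value of at least 50. Some results for genes that this rule names are left out. Further genes of the lists were picked with their values in view. The alternatives tried were pseudocounts, a filter, scalings, a robust fit, voom, other reference lists and leaving out each mouse.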

Additional observations from a re-analysis of the deposited data

How the results depend on the processing

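Per library, no member changed direction under any alternative, and scaling, pseudocounts, the filter, the robust fit and voom each called 6 members higher and 0 lower. Scaling to equal totals moved the median log2 fold change of genes with a mean value of at least 10 from 0.02 to 0.14. Leaving out 1 mouse gave 2 to 6 members higher, 1 to 3 other complement genes higher (1 without any mouse but ON-CR mouse 5) and 0 to 1 lower (0 without ON-CR mouse 6 or sham mouse 1 or 2). It was 2 members without ON-CR mouse 6 or sham mouse 1 or 2, 3 without sham mouse 3, and 4 without ON-CR mouse 4. Other complement genes were 3 higher with equal totals. Relative to microglial markers, the robust fit gave 4 members higher, leaving out 1 mouse gave 2 to 5 members higher, 5 of them without ON-CR mouse 5, and Serping1 at -0.13 (without sham mouse 1) to 0.21, with -0.02 without ON-CR mouse 6. With myeloid genes in general as the reference, 1 member was higher and 1 lower, and C1qb, C1qc, C5ar1 and Serping1 were at -0.00393, -0.0777, -0.47 and -0.69. With activated microglia as the reference, 0 were higher and 6 lower, and C1qa, C1qb, C1qc, C4b, C3ar1, C5ar1, Cfb and Serping1 were at -0.60, -0.82, -0.89, -0.78, -0.12, -1.29, -0.73 and -1.51. Of these reference lists, 7 of 10 and 8 of 12 genes rose. The cause of the calls lost with 1 mouse was not tested. No paired analysis was possible because the mice carry different numbers in the groups. Intervals cover the spread between 3 mice per group only.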

Other observations

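Interferons are known inducers of C3, C4, factor B and the C1 inhibitor. Of 13 interferon-stimulated genes, 12 had a positive log2 change after ON-CR, with a median of 0.38, but 0 were called by limma or voom and 4 were higher at an unadjusted p under 0.05. Isg15 was at 323 to 503 in sham and 506 to 876 in ON-CR mice (log2 change 0.78, limma adjusted p = 0.122).

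Among 14427 other genes with a mean value of at least 50, levels most alike to the mean of the C1q chains over the 6 mice included those of Fcer1g, Marcks and Lhfpl3. Those most alike to C3 included Actn1, Nlrc3 and Gm44895, to C4b Cd63, Marcks and Gm2223, and to Serping1 Lcp1 and Gbp5. Likeness was the Pearson correlation of log2(value + 1), which was between 0.994 and 0.998 for these, and with 6 mice in 2 groups 261 genes reached 0.95 with the C1q mean. Lcp1, a gene of leukocytes, was at 0.70 on the scale of log2 change (limma adjusted p = 0.254). Cd63, a lysosomal membrane gene, was at 0.59 (limma adjusted p = 0.0403).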
